A study of Homo sapiens with 44 samples.

Results

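PARP8, PARP9, PARP10, PARP12 and PARP14 are ADP-ribosyltransferase genes that have been linked to the interferon response, and DTX3L encodes the ubiquitin ligase that partners PARP9. These 6 genes were followed, with PARP1 as a family member that has no such link, as 7 named rows of a table of 40663 gene symbols. All 7 rows were present, and 5 of them passed the filter on low counts that left 9513 genes for testing. PARP10 and PARP12 did not pass and are described by their counts.

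The libraries are bulk RNA-seq of Ccd-18Co, an adherent fibroblast line from human colon that was bought from a cell repository and used up to a limited passage number. The 44 libraries fell into 11 groups of 4: unstimulated cells, and cells given IFNα, IFNγ, TNF, IL-1β, oncostatin M (OSM), IL-6, IL-13, IL-17A, IL-22 or TGF-β1. All cells were kept in serum-free medium for 72 h, and the cytokine then acted for 24 h at 10 ng/ml, or at 0.1 ng/ml for IL-1β as the sample labels give it, a dose on which the study's text is not uniform. A single cell line was used, and nothing in the sources used here says that the 4 replicates of a group came from separate cultures, so p-values measure the spread between these libraries, which may be technical.

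Total counts were between 742173 and 2213424 per library (median 1480883). Levels are given as CPM (counts scaled to a common normalised library size), on which scale 3 counts correspond to between 1.39 and 3.85 CPM. None of 8 fibroblast markers was at 0 in any library, and together they were at between 16587 and 52127 CPM per library. Of the markers of other cell types, EPCAM had 3 counts in sum over all 44 libraries, CDH1 had 4, PTPRC 13, PECAM1 15 and CD3E 0, while the epithelial gene VIL1 had 698 counts in 43 libraries and at most 44 counts in a library. The labels of the interferon groups were checked on 6 classical interferon-stimulated genes (ISG15, IFIT1, IFIT3, MX1, OAS1 and RSAD2), of which 6 rose with IFNα and 4 with IFNγ. ISG15, usually among the most abundant of these transcripts, had only between 12 and 18 counts in the IFNα libraries and 0 in the unstimulated ones. IFIT3, for example, was at 11.7 ± 4.91 CPM in unstimulated cells, 7555 ± 576 with IFNα and 628 ± 66.7 with IFNγ (mean ± SD, n = 4 each).

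ADP-ribosyltransferases move ADP-ribose from NAD onto proteins or nucleic acids. PARP1 builds long poly(ADP-ribose) chains at broken DNA, whereas most of the other family members add single ADP-ribose units or, as was long held for PARP9, are barely active alone. PARP9 and PARP14 carry macrodomains, which bind ADP-ribose, PARP12 has zinc fingers that bind RNA, and DTX3L belongs to the Deltex family of ubiquitin ligases. Type I interferons such as IFNα signal through a complex that holds STAT2 and IRF9 and binds the interferon-stimulated response element (ISRE), and IFNγ signals mainly through the gamma-activated sequence (GAS).

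PARP9, DTX3L and PARP14 lie close together on the long arm of chromosome 3. In the GENCODE annotation of GRCh38, PARP9 spans chr3:122527924-122564577 on the minus strand, DTX3L spans chr3:122564338-122575203 on the plus strand, and PARP14 spans chr3:122680839-122730840 on the plus strand. PARP9 and DTX3L point away from each other, and their annotated ends overlap by 240 bases. PARP12 lies at chr7:140023749-140062951 on the minus strand, PARP8 at chr5:50665899-50846519 on the plus strand and PARP1 at chr1:226360210-226408154 on the minus strand.

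The start regions are shown because PARP9 and DTX3L share 1 of them and because interferon-response motifs lie there. Promoter windows from 250 bases before to 50 bases after each annotated start were read from a RefSeq table (GRCh38.p14) for 6 of the 7 genes and searched on both strands for an ISRE core, written as GAAA followed after any 2 bases by GAAA, and for a GAS, TTCNNNGAA. Of 35116 windows of the same 300 bases in the table, 3.57% held the ISRE core and 7.66% held the GAS. The following stretches run 5′ to 3′ on the strand of each gene, from 120 bases before the start to 30 bases after it, and capitals mark the ISRE core on either strand.
PARP9 (chr3:122564271-122564420, minus strand): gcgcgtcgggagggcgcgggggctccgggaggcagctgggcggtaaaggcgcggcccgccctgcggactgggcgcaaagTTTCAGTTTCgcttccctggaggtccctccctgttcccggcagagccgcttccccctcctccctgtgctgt
DTX3L (chr3:122564218-122564367, plus strand): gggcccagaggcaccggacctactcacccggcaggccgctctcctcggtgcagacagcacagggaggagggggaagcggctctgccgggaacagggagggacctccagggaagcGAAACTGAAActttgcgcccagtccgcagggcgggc
PARP14 (chr3:122680719-122680868, plus strand): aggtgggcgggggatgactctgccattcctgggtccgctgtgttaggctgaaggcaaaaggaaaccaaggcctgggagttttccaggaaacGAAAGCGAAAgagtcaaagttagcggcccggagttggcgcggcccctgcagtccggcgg
PARP12 (chr7:140062922-140063071, minus strand): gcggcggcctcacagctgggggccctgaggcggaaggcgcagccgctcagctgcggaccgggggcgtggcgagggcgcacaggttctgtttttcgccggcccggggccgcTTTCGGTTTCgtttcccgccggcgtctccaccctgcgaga
PARP1 (chr1:226408064-226408213, minus strand): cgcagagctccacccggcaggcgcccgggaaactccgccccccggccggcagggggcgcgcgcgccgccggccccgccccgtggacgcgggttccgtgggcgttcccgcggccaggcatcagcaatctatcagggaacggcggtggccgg
The core in the PARP9 and DTX3L stretches is the same 10 bases of the chromosome, chr3:122564332-122564341, read on opposite strands. PARP14 held an ISRE core at chr3:122680810-122680819 and, just upstream of it, the only GAS among these windows, at chr3:122680799-122680807. No window of PARP1 or of the 3 annotated PARP8 starts held either motif, nor did that of a second, upstream PARP9 start. A match describes letters in these windows and not binding, and the absence of a match says nothing of the factors.

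Among the 5 tested members, PARP9, DTX3L and PARP14 were those that rose with the interferons. With IFNα, 3 of the 5 tested members were significantly higher than in unstimulated cells (edgeR's quasi-likelihood test, Benjamini-Hochberg adjusted p under 0.05), where 4.99% of all tested genes were called higher, and 0 were lower. With IFNγ the same 3 were higher, against 5.52% of all tested genes. All 3 also passed with an absolute log2 fold change above 1.5, the study's own threshold, which 2.46% of all tested genes passed upwards with IFNα and 2.4% with IFNγ. The median log2 fold change of the 5 members was 2.98 with IFNα and 2.47 with IFNγ, against -0.01 over all tested genes in each comparison. Both comparisons used the same 4 unstimulated libraries. Of the 8 fibroblast markers, 2 were lower and 0 higher with each interferon. Of all tested genes, 4.86% were called lower with IFNα and 5.13% with IFNγ.

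**Figure D1:**
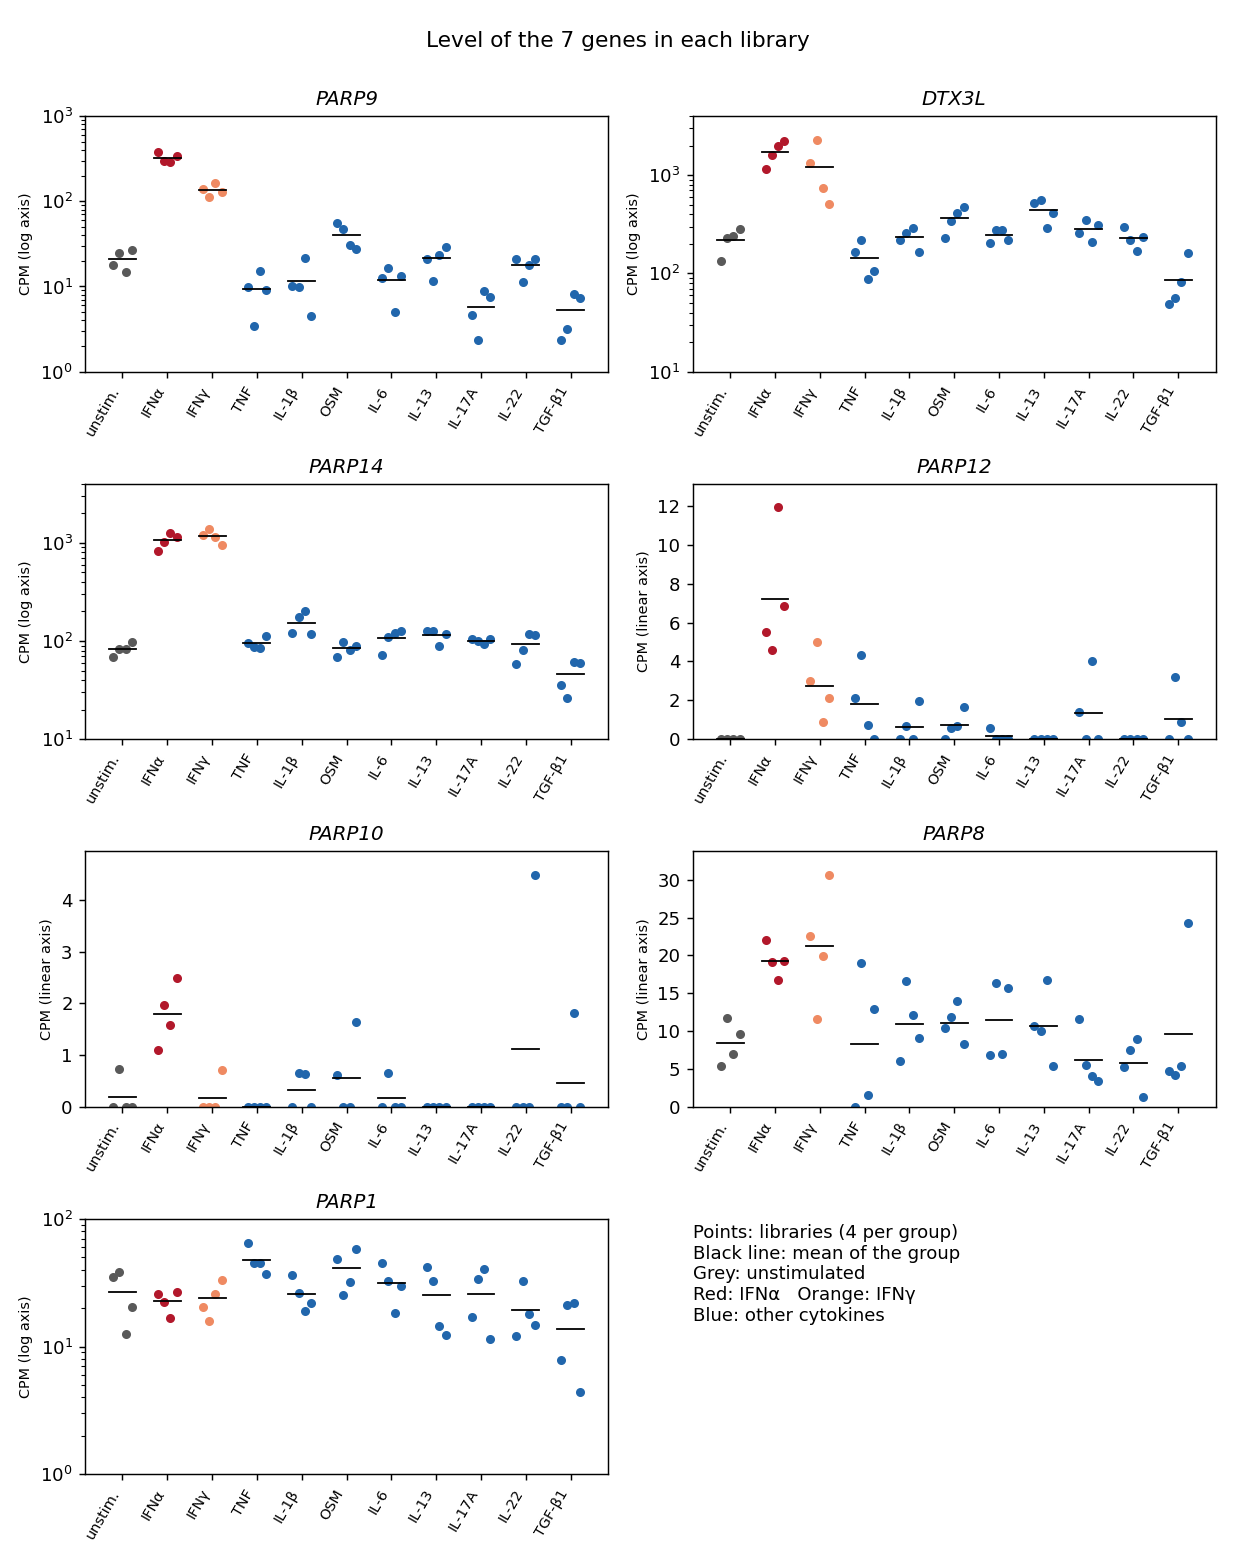
CPM of the 7 genes in each of the 44 libraries (points) with the mean of each group of 4 (line), on log axes for PARP9, DTX3L, PARP14 and PARP1 and linear axes for PARP12, PARP10 and PARP8. The IFNα and IFNγ libraries stand above all unstimulated libraries for PARP9, DTX3L and PARP14, and within their range for PARP1.

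PARP9, the macrodomain protein that binds DTX3L, was at 17.6, 24.8, 14.8 and 26.6 CPM in the 4 unstimulated libraries. It was at 375, 298, 293 and 341 CPM with IFNα and at 138, 114, 165 and 127 CPM with IFNγ. All IFNα libraries lay above all IFNγ libraries, as was so for 6.92% of tested genes. All of these lay above all unstimulated ones, as was so for 7.98% with IFNα and 6.07% with IFNγ. PARP9 was 15.6-fold higher with IFNα (log2 fold change 3.96 ± 0.34 SE, adjusted p = 1.68e-12) and 6.49-fold higher with IFNγ (2.70 ± 0.33, adjusted p = 4.43e-08). Compared directly in the same model, IFNα exceeded IFNγ by 2.40-fold for PARP9 (log2 difference 1.27 ± 0.30, adjusted p = 0.00344), a comparison in which 4.93% of tested genes were called higher with IFNα. With the threshold of 1.5 on the log2 fold change, which 1.68% passed upwards, PARP9 was not called in that comparison.

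DTX3L, the ubiquitin ligase transcribed away from PARP9, was the most abundant member per length in unstimulated cells, at 38.3 ± 10.8 CPM per kilobase of its annotated transcript. PARP14 followed at 10.7 ± 1.48, PARP9 at 6.88 ± 1.86, PARP1 at 6.70 ± 3.06 and PARP8 at 1.13 ± 0.37 CPM per kilobase. The DTX3L counts were 134, 229, 239 and 281 CPM in unstimulated cells, 1167, 1608, 1968 and 2228 CPM with IFNα, and 1345, 2298, 740 and 515 CPM with IFNγ. The unstimulated libraries stood below all interferon libraries, and the IFNγ libraries spread beyond the IFNα range at both ends. DTX3L was 7.91-fold higher with IFNα (log2 fold change 2.98 ± 0.35, adjusted p = 9.49e-09) and 5.55-fold higher with IFNγ (2.47 ± 0.34, adjusted p = 6.56e-07).

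The difference of DTX3L between IFNα and IFNγ did not pass the test (log2 difference 0.51 ± 0.32, 95% interval -0.14 to 1.16, adjusted p = 0.40). It rests on 1 library: without IFNγ replicate 2, the highest for DTX3L, the log2 difference was 1.00 and the adjusted p was 0.0378. That library was also the highest of the IFNγ group for STAT2, at 3282 CPM. In replicates 1, 2, 3 and 4 of IFNγ, STAT2 was at 1723, 3282, 1055 and 703 CPM, the same order as DTX3L. PARP14 followed that order too, as did IFIT1 at 340, 487, 148 and 130 CPM. PARP9 did not follow that order, nor did ISG15, IFIT3, MX1, OAS1 and RSAD2. STAT2 and these other genes were looked up after the DTX3L values were seen. The part of IFNγ replicate 2 in the result was not tested otherwise.

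PARP14, a large macrodomain protein that adds single ADP-ribose units, was at 69.0, 82.4, 82.3 and 97.0 CPM in unstimulated cells. With IFNα it was at 827, 1017, 1253 and 1153 CPM, and with IFNγ at 1204, 1394, 1142 and 961 CPM. The interferon groups overlapped each other and stood far above the unstimulated libraries. PARP14 was 12.9-fold higher with IFNα (log2 fold change 3.68 ± 0.23, adjusted p = 2.14e-17) and 14.2-fold higher with IFNγ (3.83 ± 0.23, adjusted p = 1.34e-17). The difference between IFNα and IFNγ was -0.15 ± 0.20 on the log2 scale, with a 95% interval of -0.55 to 0.26 (adjusted p = 0.754).

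PARP12, a zinc-finger family member, had 0 counts in each of the 4 unstimulated libraries, which allows up to 3 counts in each. With IFNα it had between 7 and 15 counts in every library and 43 in sum, and with IFNγ between 1 and 6 counts and 14 in sum. All 8 interferon libraries therefore held PARP12 counts. Its pooled level with IFNα, 6.94 CPM, was 3.64-fold the 1.91 CPM that 3 counts per unstimulated library would be. That fold leaves out the counting error of the 43 IFNα counts and is not a lower limit. With that error, the lower limit of the pooled IFNα level was 5.02 CPM, still above 1.91 CPM. For IFNγ no fold is given, since 2 of the 4 libraries held 3 counts or fewer. When all genes with any count were tested, the edgeR adjusted p of PARP12 was 0.00264 for IFNα and 0.0404 for IFNγ. Among the other groups, PARP12 counts summed to at most 9 (TNF) and were 0 in all IL-13 and IL-22 libraries.

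PARP10, which adds single ADP-ribose units, was at most 7 counts in any library of the series. It had between 2 and 4 counts in each IFNα library and 11 in sum, against 1 count in sum in the unstimulated libraries and 1 in sum with IFNγ. Its highest value, 7 counts, was in a single IL-22 library, and the other IL-22 libraries had 0. These counts are at the floor of 3 counts per library on both sides, so no fold change is given, and with all genes tested the adjusted p was 0.519 for IFNα.

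PARP8, a little-studied member of the family, was at 5.39, 11.7, 7.04 and 9.56 CPM in unstimulated cells, 22.0, 19.1, 16.7 and 19.3 CPM with IFNα, and 22.6, 11.6, 19.9 and 30.6 CPM with IFNγ. All IFNα libraries lay above all unstimulated ones, as was so for 7.98% of tested genes, and 1 IFNγ library overlapped them. The fitted log2 fold change was 1.20 ± 0.60 with IFNα (95% interval -0.01 to 2.42, adjusted p = 0.241) and 1.34 ± 0.61 with IFNγ (95% interval 0.12 to 2.56, adjusted p = 0.162). Neither passed the test, the interval with IFNα includes 0, and both intervals reach beyond 2 on the log2 scale.

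PARP1, the DNA-damage enzyme followed as the unlinked member, was at 34.8, 38.6, 12.7 and 20.5 CPM in unstimulated cells. It was at 25.9, 22.4, 16.7 and 26.8 CPM with IFNα and at 20.3, 15.8, 26.0 and 33.5 CPM with IFNγ, inside the unstimulated range in every library. The log2 fold change was -0.21 (95% interval -1.06 to 0.63, adjusted p = 0.845) with IFNα and -0.16 (95% interval -1.01 to 0.69, adjusted p = 0.872) with IFNγ. The PARP1 estimates were not whole numbers in 39 of 44 libraries, against 21 libraries for DTX3L and 11 for PARP14. Some reads at PARP1 were therefore shared with other transcripts in those libraries, but how many was not measured.

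**Figure D2:**
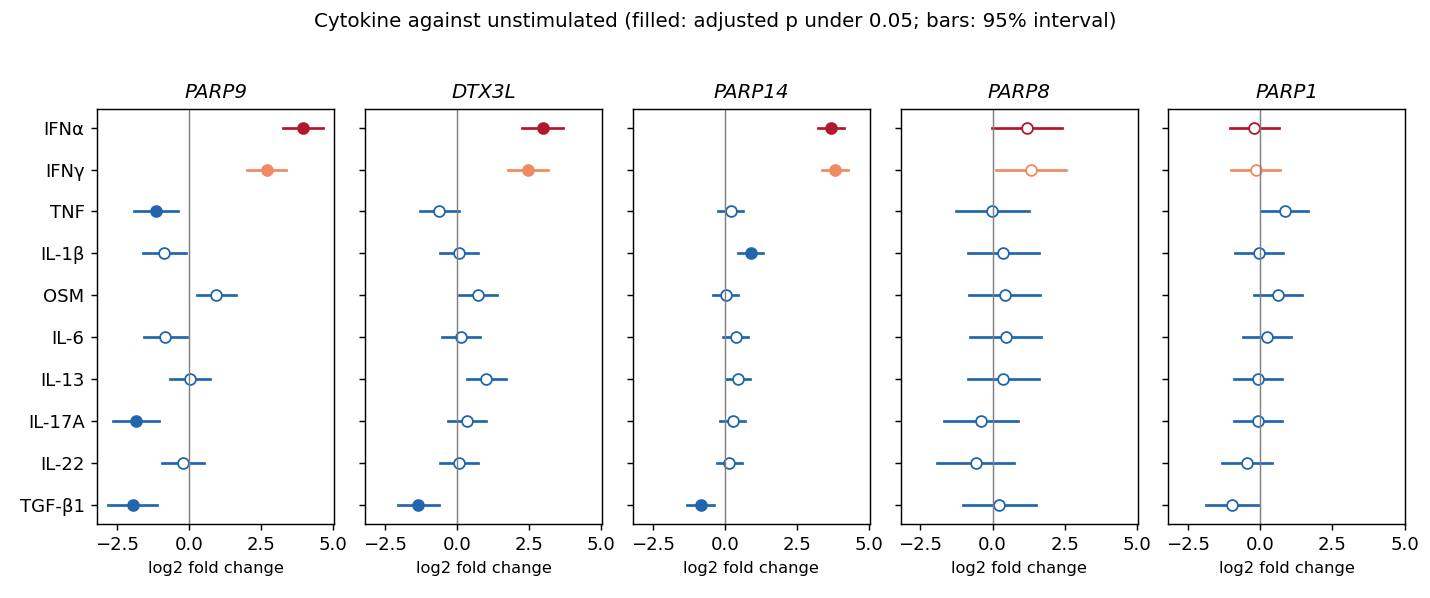
Log2 fold change of the 5 tested members with each cytokine against unstimulated cells (points) with 95% intervals (bars), filled where the edgeR adjusted p was under 0.05. The interferon points of PARP9, DTX3L and PARP14 lie between 2.47 and 3.96, those of PARP1 lie at -0.21 and -0.16, and PARP9 has filled points below 0 for TNF, IL-17A and TGF-β1.

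Outside the interferons, PARP9 was lower with TGF-β1, IL-17A and TNF, DTX3L and PARP14 were lower with TGF-β1, and PARP14 was higher with IL-1β. With TGF-β1, 3 of 5 tested members were lower, against 3.08% of all tested genes, and 0 were higher. With the threshold of 1.5 on the log2 fold change 1 of them, PARP9, remained, against 1.06% of all tested genes. Fibroblast markers moved in the same direction, with 4 of 8 lower (COL1A2, COL3A1, LUM and THY1), 0 higher and a median log2 fold change of -0.49, and their part in the result was not tested. PARP9 was at 2.34, 3.19, 8.17 and 7.34 CPM with TGF-β1, all below the unstimulated libraries, and 3.88-fold lower on the fit (log2 fold change -1.96 ± 0.42, adjusted p = 0.0022). DTX3L was at 48.3, 56.4, 81.7 and 160 CPM, with 1 library inside the unstimulated range (log2 fold change -1.34 ± 0.35, adjusted p = 0.0133). PARP14 was at 35.9, 26.6, 60.8 and 60.2 CPM, all below the unstimulated libraries (log2 fold change -0.84 ± 0.23, adjusted p = 0.0174). All TGF-β1 libraries lay below all unstimulated ones for 5.37% of tested genes.

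The calls of DTX3L and PARP14 with TGF-β1 rested on single libraries. That of PARP14 was also lost when edgeR was fitted to only the libraries compared (adjusted p = 0.133). Without unstimulated replicate 4, TGF-β1 replicate 1 or TGF-β1 replicate 2, the adjusted p was between 0.054 and 0.0774 for DTX3L and between 0.0703 and 0.107 for PARP14, while that of PARP9 was at most 0.0229 without any 1 library. Of the 6 interferon-stimulated genes, edgeR also called 3 higher with TGF-β1, namely IFIT3, OAS1 and RSAD2. DESeq2 called 2, IFIT3 and OAS1, and not RSAD2. RSAD2 had 9, 9 and 14 counts in TGF-β1 replicates 2, 3 and 4 and 0 counts in TGF-β1 replicate 1 and in all unstimulated libraries. In those 3 libraries, RSAD2 was at between 1.10% and 1.38% of its mean level with IFNα, and PARP9 at between 0.977% and 2.50% of its own. In TGF-β1 replicate 1, the library without RSAD2 counts, PARP9 had 3 counts, as few as in any library of the series. With that library alone in the group, the log2 fold change was -3.11 for PARP9, -2.19 for DTX3L and -1.20 for PARP14. It held the lowest TGF-β1 levels of PARP9 and DTX3L, and 1 library has no spread of its own, so no test is given. The part of the interferon-stimulated transcripts in the result was not tested further.

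With IL-17A, PARP9 was the tested member called, 1 of 5 against 0.925% of all tested genes called lower, and against 0.21% with the threshold of 1.5, which PARP9 also passed. PARP9 was at 4.64, 2.34, 8.81 and 7.47 CPM, below all unstimulated libraries and 3.57-fold lower on the fit (log2 fold change -1.84 ± 0.40, adjusted p = 0.00675). Its counts there were 10, 3, 11 and 13, and without IL-17A replicate 2 the adjusted p was 0.0517. All IL-17A libraries lay below all unstimulated ones for 3.62% of tested genes. DTX3L, whose gene starts beside that of PARP9, had a log2 fold change of 0.36 ± 0.33 with IL-17A (adjusted p = 0.752).

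With TNF, PARP9 was again the tested member called, 1 of 5 against 6.09% of all tested genes called lower, and 0 of 5 against 2.34% with the threshold of 1.5 on the log2 fold change. The PARP9 levels were 9.88, 3.45, 15.0 and 9.11 CPM, of which 3 lay below all unstimulated libraries (log2 fold change -1.13 ± 0.38, adjusted p = 0.0409). This call was lost without any 1 of 5 libraries (unstimulated replicates 2 and 4 and TNF replicates 1, 2 and 4), with adjusted p between 0.0835 and 0.162. PARP1 was at 65.0, 44.8, 45.0 and 37.0 CPM with TNF, its highest group mean, but the log2 fold change of 0.84 ± 0.41 did not pass the test (adjusted p = 0.204).

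With IL-1β, PARP14 was the tested member called, 1 of 5 against 3.46% of all tested genes called higher, and 0 of 5 against 1.47% with the threshold of 1.5 on the log2 fold change. PARP14 was at 120, 177, 202 and 119 CPM, above all unstimulated libraries, as was so for 6.46% of tested genes. It was 1.87-fold higher on the fit (log2 fold change 0.90 ± 0.21, adjusted p = 0.00316). TNF and IL-1β were also compared directly, and edgeR called 0 of 5 members, with 3 at an unadjusted p under 0.05 and 0 by DESeq2, where 1.15% of tested genes were called in either direction and 11.5% had an unadjusted p under 0.05. For PARP14 the log2 difference, TNF minus IL-1β, was -0.69 ± 0.21 (adjusted p = 0.104) and the libraries of the groups did not overlap. All TNF libraries lay below all IL-1β libraries for 4.3% of tested genes.

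In the comparisons of OSM, IL-6, IL-13 and IL-22 with unstimulated cells, edgeR called 0 of the 5 members. All-gene calls in either direction were 3.96% for OSM, 0.0105% for IL-6, 3.93% for IL-13 and 0% for IL-22, so with IL-6 and IL-22 hardly any gene was called. At an unadjusted p under 0.05 there were 2 members for OSM, 1 for IL-6, 2 for IL-13 and 0 for IL-22, where the share of all tested genes was 15.3%, 2.45%, 15.6% and 10.9%. DESeq2 called 1 for OSM (PARP9), 1 for IL-13 (DTX3L) and 0 for the others. With OSM, a cytokine of the IL-6 family, PARP9 was at 56.0, 46.8, 30.7 and 27.2 CPM, above all unstimulated libraries (log2 fold change 0.95 ± 0.33, adjusted p = 0.108). With IL-13, DTX3L was at 447 ± 122 CPM (SD, n = 4) and also above all unstimulated libraries (log2 fold change 1.02 ± 0.33, adjusted p = 0.0747). All libraries lay above all unstimulated ones for 4.89% of tested genes with OSM and 4.54% with IL-13. Neither of these differences passed the edgeR test over all genes.

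The remaining differences from unstimulated cells did not pass the test. PARP9 had a log2 fold change of -0.85 ± 0.36 with IL-1β, at 10.1, 9.94, 21.6 and 4.54 CPM, and of -0.82 ± 0.36 with IL-6, and 3 of 4 libraries of each lay below all unstimulated ones. PARP14 lay at group means between 84.2 ± 11.9 CPM (OSM) and 114 ± 17.6 CPM (IL-13) with the 6 cytokines not yet described for it, against 82.7 ± 11.4 CPM in unstimulated cells. DTX3L had a log2 fold change of -0.61 ± 0.34 with TNF (95% interval -1.29 to 0.07) and of 0.73 ± 0.33 with OSM (95% interval 0.06 to 1.40, adjusted p = 0.267). PARP1, the repair enzyme, was at 7.80, 21.3, 21.8 and 4.40 CPM with TGF-β1, of which 2 libraries lay below all unstimulated ones (log2 fold change -0.99 ± 0.45, adjusted p = 0.21). PARP8 was lowest with IL-22, at 5.78 ± 3.35 CPM, a level of a few counts per library.

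The order of the groups differed between members. PARP9 was highest with IFNα, then IFNγ and OSM, and these 3 ranges did not overlap, while each lower neighbour overlapped the next down to TGF-β1 at 5.26 ± 2.92 CPM. PARP14 was highest with IFNγ and IFNα, which overlapped, followed by IL-1β at 154 ± 41.9 CPM, and lowest with TGF-β1 at 45.9 ± 17.3 CPM. The TGF-β1 range did not reach that of the unstimulated libraries, the next group by mean. Its highest value, 60.8 CPM, lay above the lowest IL-22 library at 58.5 CPM. For DTX3L and PARP1, each group overlapped its neighbour through the whole order, with PARP1 running from 47.9 ± 12.0 CPM with TNF to 13.8 ± 9.01 CPM with TGF-β1. PARP8 was highest by mean with IFNγ and IFNα. Its IFNα range, from 16.68 CPM, did not reach that of IL-6, the next group by mean. It did overlap groups of lower mean, with highest values of 16.74 CPM (IL-13), 18.95 CPM (TNF) and 24.22 CPM (TGF-β1).

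PARP9 was also set against DTX3L within each library. In unstimulated libraries there were 13.3, 11.0, 6.33 and 9.58 PARP9 counts per 100 DTX3L counts. With IFNα there were 32.1, 18.5, 14.9 and 15.3, above all unstimulated libraries. With IL-17A there were 1.90, 0.77, 4.41 and 2.50, below all of them.

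The difference in the log2 ratio from unstimulated cells was 0.99 with IFNα, -2.27 with IL-17A and -1.07 with IL-6, each with p = 0.0286 in an exact two-sided permutation test, the smallest p that 4 against 4 libraries allow. With IL-6 the groups barely separated, the highest IL-6 library at 6.329 and the lowest unstimulated library at 6.333 PARP9 counts per 100 DTX3L counts. Over the 10 cytokines compared, the Benjamini-Hochberg adjusted value was 0.0953 for each of the 3, so none passed the threshold. The other 7 cytokines had exact permutation p-values between 0.0571 and 0.771. The libraries of some groups lay far apart, from 1.75 to 17.4 PARP9 counts per 100 DTX3L counts with TNF and from 4.97 to 24.8 with IFNγ, the lowest of which was replicate 2. Whether strand was used in counting is not given in the sources used here, and reads from the 240 shared bases could then go to either gene.

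**Figure D3:**
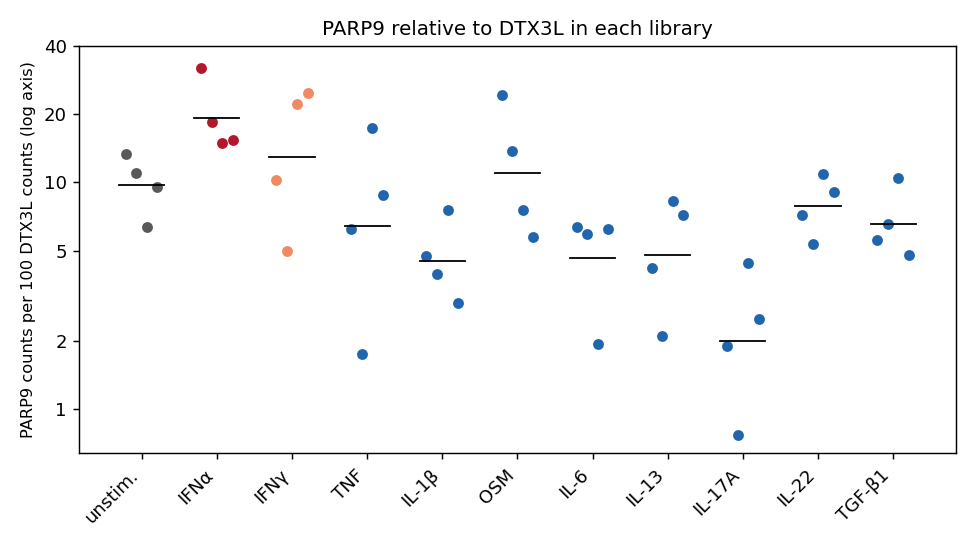
PARP9 counts per 100 DTX3L counts in each library (points, log axis) by group, with the geometric mean of the 4 libraries (line). The IFNα libraries lie between 14.9 and 32.1, above the unstimulated libraries at 6.33 to 13.3, and the IL-17A libraries lie between 0.77 and 4.41.

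Across the 11 group means of log2 CPM, the correlation of PARP9 and DTX3L was 0.916, that of PARP14 and DTX3L 0.904 and that of PARP9 and PARP14 0.872. Without the IFNα and IFNγ groups, over 9 groups, these were 0.658, 0.671 and 0.224. The correlations of PARP1 with these 3 genes were between 0.0464 and 0.104 over 11 groups and between 0.364 and 0.504 over the 9 groups. These are descriptions over group means that share the scaling of each library.

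The genes whose 11 group means followed a member most closely were RNF213 (r = 0.973), CXCL16 and LGALS3BP for PARP9, IRF1-AS1 (r = 0.978), BTN3A1 and CCL8 for PARP14, and APOBEC3G (r = 0.948), SP110 and APOL2 for DTX3L. For PARP8 they were GPX3 (r = 0.944), GTF2E1 and MR1, and for PARP1 they were PHAF1 (r = 0.935), PLA2G4C and SSRP1.

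PARP9, DTX3L and PARP14 were compared with the genes around them on chromosome 3. Within 250 kb of PARP9 and DTX3L the annotation lists 15 other genes, of which 12 were in the table and 7 were tested. Of these 7, edgeR called 0 with IFNα and 0 with IFNγ, and DESeq2 called 0 in each. At an unadjusted p under 0.05 there were 0 with IFNα and 1 with IFNγ. Of all tested genes, edgeR called 9.85% in either direction with IFNα and 10.6% with IFNγ. The shares at an unadjusted p under 0.05 were 21.4% and 23.3%. KPNA1, an importin gene on the PARP9 side, had a log2 fold change of -0.28 ± 0.20 with IFNα (adjusted p = 0.475) and FAM162A one of 0.50 ± 0.20 with IFNγ (adjusted p = 0.11). PARP15, the family member that lies between DTX3L and PARP14, was too low to test, with a mean of 3.36 ± 1.92 CPM with IFNα and 1.23 ± 1.06 CPM in unstimulated cells.

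**Figure D4:**
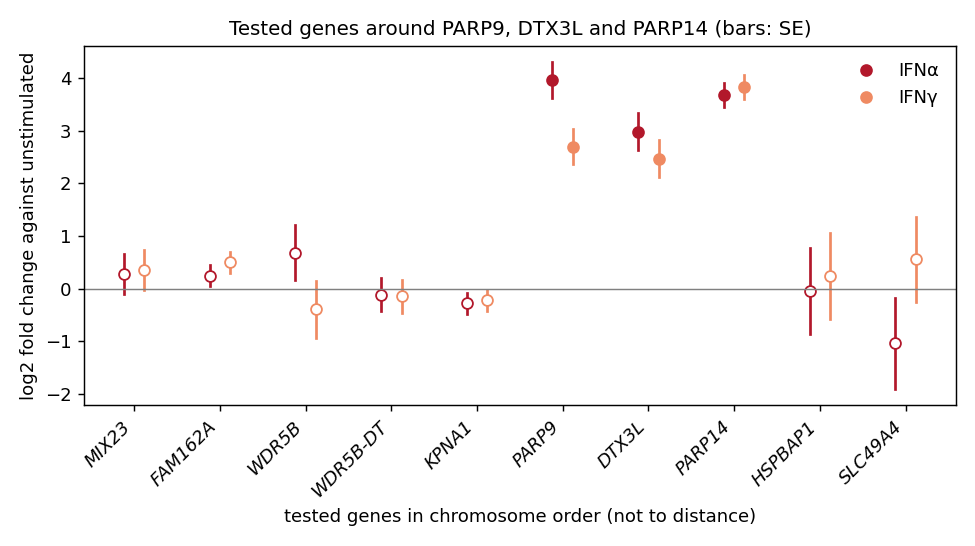
Log2 fold change (points) and SE (bars) with IFNα and IFNγ for the tested genes around PARP9, DTX3L and PARP14, placed in chromosome order and not by distance, filled where the adjusted p was under 0.05. PARP9, DTX3L and PARP14 lie at 2.47 or above, and the other 7 genes at 0.68 or below.

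Among 11 other PARP family genes, 7 could be tested, and edgeR called 0 with IFNα and 0 with IFNγ. Of all tested genes, 9.85% and 10.6% were called in either direction. In each of these comparisons 1 of the 7 had an unadjusted p under 0.05, as had 21.4% of all tested genes with IFNα and 23.3% with IFNγ, and DESeq2 called 0. ZC3HAV1, the antiviral zinc-finger family member, was at 131 ± 38.1 CPM with IFNα and 86.4 ± 18.7 CPM in unstimulated cells (log2 fold change 0.61 ± 0.25, adjusted p = 0.124). The median log2 fold change of the 7 was 0.33 with IFNα and 0.11 with IFNγ. Over the other cytokines, TIPARP rose with TNF (log2 fold change 0.63, adjusted p = 0.0462) and ZC3HAV1 fell with TGF-β1 (log2 fold change -0.91, adjusted p = 0.0284), both named after their values were seen.

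The enzymes that remove ADP-ribose, 6 tested of 9, included 0 genes called with IFNα or IFNγ, with 0 and 1 at an unadjusted p under 0.05 and 0 by DESeq2 in each. Of 9 genes that work with PARP1 in DNA repair, such as XRCC1 and HPF1, 8 were tested and 0 were called with either interferon. At an unadjusted p under 0.05 there were 0 with IFNα and 1 with IFNγ, and DESeq2 called 0 in each. Over all tested genes, edgeR called 9.85% in either direction with IFNα and 10.6% with IFNγ. The shares at an unadjusted p under 0.05 were 21.4% and 23.3%. Of the 4 other Deltex ligases only DTX4 was tested, and its log2 fold change was -0.29 (adjusted p = 0.922) with IFNα and 1.10 (adjusted p = 0.536) with IFNγ.

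Among 13 genes that make or use NAD, the substrate of these enzymes, 9 were tested. By edgeR 2 rose with IFNα and 3 with IFNγ, with 0 lower in either. Of all tested genes, 4.99% were called higher with IFNα and 5.52% with IFNγ. DESeq2 called 2 in each, CD38 and NAMPT with IFNα and NAMPT and NNMT with IFNγ. CD38, an NAD-consuming surface enzyme, was at 28.7 ± 9.30 CPM with IFNα and 11.8 ± 2.03 CPM with IFNγ, against 0.827 ± 0.40 CPM in unstimulated cells, at or under 3 counts per library. NAMPT, the rate-limiting enzyme of NAD salvage, was 2.52-fold higher with IFNα (adjusted p = 0.00535) and 2.43-fold higher with IFNγ (adjusted p = 0.00861). Its calls were not limited to the interferons, since DESeq2 also called it with TNF, IL-1β, OSM and IL-17A. The highest NAMPT count, 2641, was in IL-1β replicate 1. NNMT, which methylates nicotinamide, rose with IFNγ (2.55-fold, adjusted p = 7.59e-08). The median log2 fold change of the 9 genes was 0.07 with IFNα and -0.20 with IFNγ.

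Of 13 genes of interferon signalling, 11 were tested, and 6 rose with IFNα and 6 with IFNγ, with 0 lower in either. Of all tested genes, 4.99% were called higher with IFNα and 5.52% with IFNγ. The median log2 fold change of the 11 was 1.27 with IFNα and 1.88 with IFNγ. STAT2 was 4.61-fold higher with IFNα (adjusted p = 3.82e-07), and IRF9 was 5.32-fold higher with IFNα (adjusted p = 0.00568). With IFNγ, IRF9 was at 20.3, 12.5, 20.8 and 94.0 CPM and 4.53-fold higher on the fit (adjusted p = 0.0146), but without IFNγ replicate 4 it was 2.21-fold higher and the call was lost (adjusted p = 0.309), as it was without unstimulated replicate 4 (adjusted p = 0.0594). IRF1, a transcription factor induced through GAS sites, was at 121 ± 7.01 CPM with IFNγ and 15.1 ± 9.38 CPM with IFNα, against 5.05 ± 3.00 CPM in unstimulated cells. Its call with IFNα (adjusted p = 0.0458) was lost without any 1 of 5 libraries (unstimulated replicates 2, 3 and 4 and IFNα replicates 2 and 4), with adjusted p between 0.059 and 0.26. USP18, which damps type I interferon signalling, was at 243 ± 40.6 CPM with IFNα and 11.6 ± 2.06 CPM with IFNγ, and at 0.245 ± 0.49 CPM in unstimulated cells.

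Of 9 interferon genes, 0 passed the filter on low counts. Over all 44 libraries IFNB1 had 1 count and the IFNG gene 0 counts, which allows up to 3 counts in a library, while IFNE, an interferon of epithelia, had 71 counts in sum and at most 9 in a library.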

How the data were processed

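The study sequenced RNA of Ccd-18Co cells, extracted with column kits, on an Illumina instrument. Per the labels, the submitters' processing notes name FastQC (version 0.11.9), MultiQC (version 1.14), kallisto (version 0.48.0) and the build hg38. The authors deposited estimated counts per gene symbol and library, without scaling for depth, and 5.77% of the values are not whole. Which transcriptome release and strand setting were used, and how transcripts were summed to genes, is not given in the sources used here. All 44 columns belonged to labelled libraries.

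The estimated counts were rounded and fitted in R (version 4.3.3) by edgeR (version 4.0.16), with filterByExpr as the filter on low counts (9513 genes kept), TMM scaling and 1 coefficient per group over all 44 libraries, so that the groups shared their estimate of the spread. The 10 cytokine groups were each set against the unstimulated group, and the same model gave IFNα minus IFNγ and TNF minus IL-1β. Errors are SE for log2 fold changes and SD for levels. The PARP9 to DTX3L ratio (0.5 added to each count) was tested by exact permutation of 4 against 4 libraries (70 divisions). Total counts were between 742173 and 2213424, and the floor of 3 counts covers counting error only. Among the 66 replicate pairs the lowest chi-square per degree of freedom was 3.17, and 0 pairs were identical.

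Positions came from GENCODE on GRCh38 and promoter windows from a RefSeq table. The genes named were the 7 members, the genes of fixed lists that passed the test with either interferon (at most 4 for a list and comparison, by log2 fold change), the tested neighbours within 250 kb and the 3 genes most like each member. Of the interferon signalling list, 1 gene that the rule names is not reported here. The members and lists were chosen with earlier results of these data known. On simulated counts for IFNα against unstimulated cells over 9000 genes, edgeR called 197 of 200 changed genes and 12 unchanged ones. The changed genes were drawn from those well above the floor and were given large changes only. The recovery therefore does not apply to genes as low as PARP8 or to small changes. The alternatives run were DESeq2 (version 1.42.0; its size factors, and its Wald test), no filter on low counts, a filter of 10 counts in 4 libraries, a fit of only the libraries compared, a replicate block, the threshold of 1.5 on the absolute log2 fold change, pseudocounts of 0.1 and 2 in the ratio, and leaving out each library.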

Additional observations from a re-analysis of the deposited data

Results flagged for a closer look

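PARP8 in TGF-β1 replicate 4 was at 24.2 CPM, far from the other 3 TGF-β1 libraries at between 4.25 and 5.44 CPM. It was the only 1 of 55 groups of a tested member in which a library stood apart by Dixon's criterion, where chance alone gives about 2.75. Without it the PARP8 log2 fold change with TGF-β1 went from 0.24 to -0.75, and neither value passed the test (adjusted p = 0.894 and 0.591). DTX3L and IFIT1 also had their highest TGF-β1 values in that library, at 160 and 243 CPM, and the part of the library in the result was not tested further.

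PARP9 differed between IFNα and IFNγ by 1.27 on the log2 scale in edgeR's direct test (adjusted p = 0.00344), with all 4 IFNα libraries above all 4 IFNγ libraries. The difference stayed between 1.18 and 1.35, with an adjusted p of at most 0.0182, when any 1 library was left out.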

How the results depend on the processing

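Of the 5 tested members, 3 were called with IFNα and 3 with IFNγ under every alternative run. With no filter on low counts (23518 genes) PARP12 was called with both as well, with IFNγ on between 1 and 6 counts per library. Requiring an absolute log2 fold change above 1.5 left 0 members for TNF, 0 for IL-1β, 1 for TGF-β1 and 0 for IFNα against IFNγ. With all genes tested there were, among the same 5 members, 2 for TNF, 1 for OSM, 1 for IL-13 and 1 for TNF against IL-1β. With only the libraries compared there were 0 for TNF, 1 for IL-13 and 0 for IL-17A, and PARP14 was no longer called with TGF-β1. DESeq2's Wald test gave 1 for OSM and 1 for IL-13. With 1 library left out, the counts were 0 to 1 for TNF, 1 to 2 for IL-1β (2 without IL-1β replicate 3), 0 to 1 for IL-13 (1 without IL-13 replicate 3), 0 to 1 for IL-17A, 1 to 3 for TGF-β1 and 1 to 2 for IFNα against IFNγ. Keeping only TGF-β1 replicate 1, a choice made after seeing the data, left 1 library in that group, so no count of calls is given for it. The fits without single libraries for interferon genes outside the members were also added after seeing the data. No log2 fold change that passed the test changed sign. Calls over all genes under the fold threshold were fewer (IFNα 379, IFNγ 336, TNF 399, IL-1β 264, OSM 124, IL-13 140, IL-17A 43, TGF-β1 162, IFNα against IFNγ 261, TNF against IL-1β 35). With all genes tested they were 220 for IL-17A, 13 for IL-6, 29 for IL-22 and 227 for TNF against IL-1β. With only the libraries compared they were 451 for IFNγ, 0 for IL-6, 233 for TGF-β1 and 515 for IFNα against IFNγ. By DESeq2 they were 239 for IL-17A, 112 for IL-22 and 176 for TNF against IL-1β. With 1 library left out they ranged from 670 to 1335 for IFNγ, 220 to 477 for OSM, 232 to 363 for IL-13, 62 to 225 for IL-17A, 0 to 71 for IL-22, 313 to 846 for TGF-β1 and 53 to 103 for TNF against IL-1β. The groups share replicate numbers, but same-numbered libraries correlated at between -0.125 and 0.281 after removing group means. A library correlated best with its own number in 0 to 3 of 4 cases. The highest values were those of replicate 1, at 0.281 with IL-6, 0.277 with IFNα and 0.25 with OSM. The main fit therefore did not pair libraries by number, and whether same-numbered libraries share a batch was not tested. With the replicate number as a block, the member counts were 3 for IFNα, 3 for IFNγ, 3 for TGF-β1 and 1 each for TNF, IL-1β, IL-17A and IFNα against IFNγ, the same as without it, while calls over all genes went to 223 for IL-17A and 12 for IL-22. Depth limits PARP10 and PARP12 most, with at most 15 counts in any library, and PARP8 and PARP9 outside the interferon groups, where several libraries held 10 counts or fewer.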
